A study of Mus musculus with 4 samples.

Results

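Gas5 and 8 other host transcripts of small nucleolar RNAs (snoRNAs) were followed in whole mouse uterus on gestational day 4. The members were taken by symbol from the deposited expression table, which held all 9: Gas5, Snhg1, Snhg3, Snhg5, Snhg6, Snhg8, Snhg12, Snhg15 and Snhg18. They are 9 of 57186 genes in the deposited count table, and all 9 were among the 20950 genes that passed the low-count filter and entered the test. The set was selected on the knockout-to-control difference of Gas5 in these same libraries, so that difference is given as a description for every member. The knockout libraries (n = 2) came from Prss29Cre/Cre;Pgrf/f mice, called Pgr gecKO, which are homozygous for Prss29Cre and for floxed Pgr, the progesterone receptor gene. Prss29 encodes a protease of uterine glands, and Cre recombinase driven from it is meant to delete Pgr in gland epithelium. The control libraries (n = 2) came from mice labelled wild type, for which no Cre or floxed allele is named. The labels name no age or strain, and do not say whether each library is a separate animal, so p-values measure only the spread between these libraries. The effects of Cre, of the altered Prss29 locus, of strain and of the Pgr deletion cannot be told apart. RNA came from the whole organ, so gland cells are only part of each sample, and a lower level from fewer cells of a type cannot be told apart from less RNA per cell.

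snoRNAs are short nuclear RNAs that guide chemical modification of ribosomal RNA and of some other RNAs. Box C/D snoRNAs guide ribose methylation and box H/ACA snoRNAs guide pseudouridylation, and in mammals most are cut out of the introns of longer host transcripts. Some hosts encode ribosomal proteins or translation factors, while others, such as the members described here, encode no known long protein, and the spliced exons of several of them are degraded by nonsense-mediated decay in the cytoplasm. Many host genes start with a run of pyrimidines at the first base, the terminal oligopyrimidine (TOP) signature shared with ribosomal protein genes, which couples their RNA to growth signalling through mTOR. Gas5, for growth arrest specific, was first isolated from growth-arrested mouse fibroblasts, and human GAS5 RNA has been reported to bind the glucocorticoid receptor as a decoy.

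The start regions of the hosts are shown because they place Gas5 beside the others in a feature that does not come from the expression values. RefSeq promoter windows (GRCm38.p6) matched 8 of the 9 members, with a pair of windows for Gas5, which makes 9 windows; each line gives 50 bases before and 50 after the annotated start, 5′ to 3′ on the gene's strand. Capitals mark the longest run of C and T that touches the 10 bases on either side of the start.
Gas5, upstream start, chr1:161034551-161034650, plus strand: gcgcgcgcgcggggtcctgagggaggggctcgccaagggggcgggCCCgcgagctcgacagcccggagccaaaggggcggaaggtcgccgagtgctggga
Gas5, downstream start, chr1:161035116-161035215, plus strand: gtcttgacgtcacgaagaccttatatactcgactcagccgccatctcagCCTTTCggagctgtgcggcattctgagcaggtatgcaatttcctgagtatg
Snhg1, chr19:8723437-8723536, plus strand: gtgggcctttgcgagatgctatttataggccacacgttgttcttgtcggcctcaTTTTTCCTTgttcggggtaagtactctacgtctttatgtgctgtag
Snhg3, chr4:132353637-132353736, minus strand: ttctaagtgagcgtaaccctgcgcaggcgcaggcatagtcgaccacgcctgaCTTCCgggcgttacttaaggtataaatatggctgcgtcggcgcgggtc
Snhg5, chr9:88522848-88522947, minus strand: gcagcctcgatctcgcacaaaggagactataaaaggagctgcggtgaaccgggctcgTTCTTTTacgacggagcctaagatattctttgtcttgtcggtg
Snhg8, chr3:123508287-123508386, minus strand: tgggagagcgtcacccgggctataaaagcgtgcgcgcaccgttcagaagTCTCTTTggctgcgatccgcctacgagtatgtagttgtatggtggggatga
Snhg12, chr4:132308628-132308727, plus strand: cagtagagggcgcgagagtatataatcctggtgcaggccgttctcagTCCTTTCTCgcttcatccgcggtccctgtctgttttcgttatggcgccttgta
Snhg15, chr11:6528711-6528810, minus strand: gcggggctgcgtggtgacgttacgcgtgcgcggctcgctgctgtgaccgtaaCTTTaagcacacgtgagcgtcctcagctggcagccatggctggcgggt
Snhg18, chr15:32244613-32244712, minus strand: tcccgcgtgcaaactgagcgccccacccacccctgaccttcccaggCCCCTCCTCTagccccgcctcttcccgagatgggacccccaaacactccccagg

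A C followed by at least 4 pyrimidines began within 10 bases of the start in 6 of the 9 windows, against 29.7% of 32851 mouse RefSeq windows of the same length. The downstream Gas5 window was one of the 6, with a run of 6 pyrimidines, and the upstream Gas5 window, with a run of 3, was not. The letters TATAAA or TATATA, which can overlap each other, began 40 to 21 bases before the start on the gene's strand in 4 of the 9 windows, those of Snhg5, Snhg8, Snhg12 and the downstream start of Gas5. All RefSeq windows held this at 2.73%. In full windows of 250 bases before and 50 after the start, searched on both strands, TGACGTCA (a cyclic AMP response element, the same on both strands) was found in 2 of the 9 windows, the downstream Gas5 window and that of Snhg15 (upstream of the bases shown), against 1.79% of all windows. CACGTG (an E-box, the same on both strands) was found in the Snhg15 window, against 7.15% of all windows, and CCGGAAG (an ETS factor motif) in the Snhg3 window, against 8.86%. The steroid receptor motif AGAACA, whose letters can fall inside the palindromic glucocorticoid response element, was found in the Snhg1 window, against 19.0% of all windows. The palindromic element was in 0 of the 9 windows and in 0.475% of all windows. These matches describe letters in the windows and not binding.

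Gas5 (ENSMUSG00000053332), on the plus strand of chromosome 1 with 25 annotated transcripts in GENCODE M21, was the member in which the groups stood far apart. It had 60.7 and 94.2 CPM (reads scaled to library size with TMM factors) in knockout replicates 1 and 2, against 235 and 268 CPM in control replicates 1 and 2. Both knockout libraries lay below both controls, with 2007 and 2644 raw counts in the knockouts and 8181 and 9408 in the controls, so counting error was small beside the gap. The mean was 77.5 ± 23.7 CPM in knockouts and 252 ± 23.1 CPM in controls (SD, n = 2 each). On the log2 scale the fold change, knockout over control, was −1.70 (standard error, SE, 0.29), and its 95% interval ran from −2.38 to −1.02. The control level was thus 3.25 times the knockout level.

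The other 8 hosts stood near the same level in both groups. Their log2 fold changes ran from −0.098 for Snhg8 to 0.42 for Snhg1, with standard errors of 0.21 to 0.43, and the 95% interval of each included 0. Their median was 0.27, beside 0.0063 for all genes tested, and Gas5 lay 1.97 below that median (difference −1.97). Knockout replicate 2 carried the sign of the median, which was −0.068 without that library. The Gas5 difference from the median lay between −2.19 and −1.76 with any 1 library left out. By edgeR with Benjamini-Hochberg adjustment over all genes, 0 of the 9 members were called, where 0.00477% of genes were called in either direction. At an unadjusted p under 0.05 the count was 1 of 9, Gas5, where 3.01% of genes passed. At the adjusted threshold the tools differed on Gas5, with an adjusted p of 0.38 by edgeR and 1.46e-04 by DESeq2. DESeq2 thus called 1 of 9, Gas5, where it called 0.392% of genes in either direction and 0.2% as lower. A log2 fold change of −1 or lower was found in 1 of 9, where 3.11% of all genes had one. The members came from this contrast, so nothing is read from these counts or adjusted p-values.

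**Figure D1:**
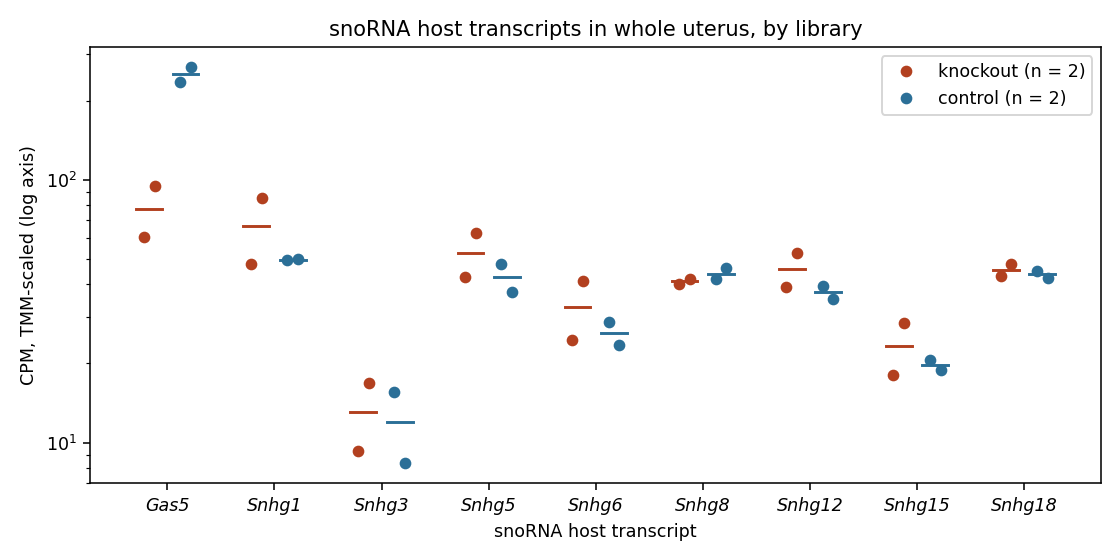
CPM of the 9 hosts in each library on a log axis, with knockout libraries in red at the left of each pair, control libraries in blue at the right, and short lines at group means (n = 2 each). Gas5 stood at 60.7 and 94.2 CPM in knockouts and at 235 and 268 CPM in controls, while the points of 7 of the other 8 hosts overlap between groups.

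Among hosts of box C/D snoRNAs other than Gas5, no group stood clear of the other. Snhg1, the host of Snord22 and 7 further annotated snoRNAs, had 47.8 and 85.0 CPM in knockouts, against 49.5 and 49.8 CPM in controls. Its controls lay within 0.0080 log2 units of each other, while its knockouts lay 0.83 apart, replicate 1 below both controls and replicate 2 above them. Snhg5, the host of Snord50a and Snord50b, had 42.7 and 62.5 CPM in knockouts, against 47.9 and 37.5 CPM in controls. Snhg6, the host of Snord87, had 24.5 and 41.1 CPM in knockouts, against 28.7 and 23.4 CPM in controls. For both, knockout replicate 2 was the highest library and control replicate 2 the lowest. Snhg18, the host of Snord123, had 43.0 and 47.7 CPM in knockouts, against 45.0 and 42.2 CPM in controls. It was the most even member across the 4 libraries by its group means, with 45.4 ± 3.29 CPM in knockouts and 43.6 ± 1.93 CPM in controls (SD, n = 2 each).

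Among hosts of box H/ACA snoRNAs, levels were also overlapping or close. Snhg8, the host of Snora24, had 40.2 and 41.8 CPM in knockouts, against 41.82 and 45.99 CPM in controls. Its knockout libraries lay below its controls by a margin that rounds away between knockout replicate 2 (41.81 CPM) and control replicate 1, with a log2 fold change of −0.098 (SE 0.21). Snhg12 holds Snora16a, Snora44 and Snora61 together with the C/D snoRNA Snord99, and had 39.1 and 52.7 CPM in knockouts, against 39.5 and 35.2 CPM in controls. Snhg15, the host of Snora9, had 18.1 and 28.6 CPM in knockouts, against 20.5 and 18.9 CPM in controls. Snhg3, the host of Snora73a and Snora73b, had 9.25 and 16.8 CPM in knockouts, against 15.6 and 8.32 CPM in controls. It was the least even member: the libraries of each group lay 0.86 (knockout) and 0.90 (control) log2 units apart, and its 95% interval ran from −0.90 to 1.15. Over the 9 members, both knockouts lay below both controls in 2, Gas5 and Snhg8, where 13.1% of all genes tested did so, and above both controls in 0, where 12.2% did.

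On the per-length scale of the deposited TPM, which corrects reads for the deposited gene length and for depth, Gas5 was below Snhg8, Snhg18 and Snhg1 by its mean in knockouts and above all 8 other hosts in controls. It had 50.1 and 67.4 TPM in knockouts, against 188 and 215 TPM in controls. Snhg8, with a deposited length of 860 bases, was at 155 and 139 TPM in knockouts, against 156 and 172 TPM in controls, and so was highest in both knockouts. In controls its libraries lay below both Gas5 values. Next came Snhg18, at 91.4 ± 2.65 TPM in knockouts and 91.5 ± 3.92 TPM in controls (SD, n = 2 each). Below them Snhg1, Gas5, Snhg12, Snhg5 and Snhg3 averaged between 39.9 and 66.7 TPM in knockouts, and neighbours in that order did not differ beyond their SD. In controls Snhg1 followed at 52.8 ± 0.284 TPM, Snhg12 at 42.3 ± 3.33 TPM, Snhg3 at 38.8 ± 16.6 TPM and Snhg5 at 37.6 ± 6.46 TPM (SD, n = 2 each), and the last 3 were within their spread. Snhg15 and Snhg6 were lowest in both groups, with Snhg15 at 23.6 ± 5.15 TPM in knockouts and 20.98 ± 1.20 TPM in controls, and Snhg6 at 23.5 ± 6.18 TPM in knockouts and 19.8 ± 2.79 TPM in controls (SD, n = 2 each). This order holds only for the deposited lengths, which exceed the joined exons of GENCODE M21 most for Snhg6 (4219 against 1146 bases), Snhg5 (3634 against 1730) and Snhg15 (3010 against 1359).

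Within each library, Gas5 made up 9.92% and 11.6% of the summed TPM of the 9 hosts in knockouts, against 28.0% and 32.3% in controls. The 8 other hosts summed to 455 and 516 TPM in knockouts, against 484 and 451 TPM in controls, and these sums overlapped between groups. The ratio of Gas5 to that sum was 0.110 and 0.131 in knockouts, against 0.390 and 0.476 in controls. This ratio does not depend on the scaling between libraries.

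**Figure D2:**
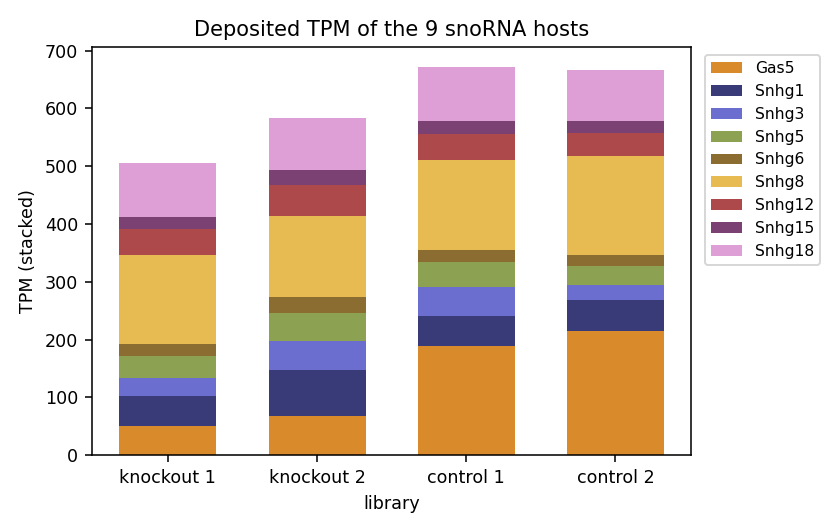
Deposited TPM of the 9 hosts stacked for each library, knockouts at the left and controls at the right, 1 bar per library. The Gas5 segment at the base is 50.1 and 67.4 TPM high in knockouts and 188 and 215 TPM high in controls, while the 8 segments above it sum to 451 to 516 TPM in all 4 libraries.

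A fixed list of 13 other non-coding transcripts known to host snoRNAs gave a wider comparison. Of these, 12 passed the low-count filter and Snhg9 did not. None of the 12 was called by edgeR over all genes, 0 had an unadjusted p under 0.05, and DESeq2 called 0. Their median log2 fold change was 0.10, from −0.18 for Snhg11 to 0.57 for Dancr. Zfas1, the most abundant by TPM, had 82.0 and 99.4 CPM in knockouts, against 74.5 and 83.5 CPM in controls. Snhg20, the next, had 62.9 and 38.1 CPM in knockouts, against 32.9 and 62.6 CPM in controls. In 3 of the 12, Snhg7, Snhg17 and Dancr, both knockouts lay above both controls, where 12.2% of all genes tested did so. In 0 of the 12 both knockouts lay below both controls, where 13.1% of all genes tested did so.

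**Figure D3:**
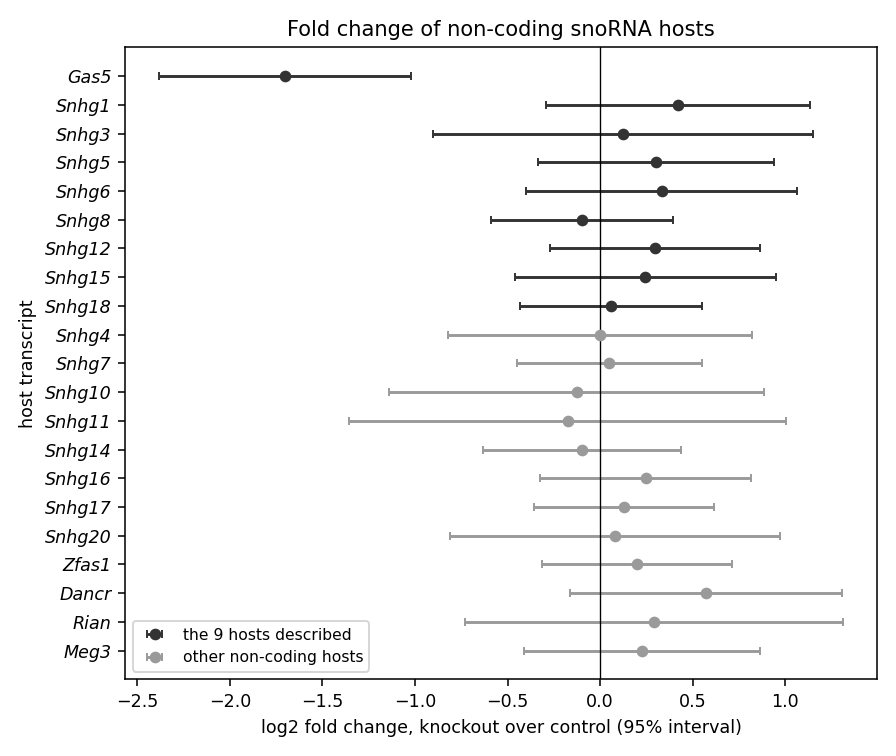
Log2 fold change, knockout over control, with 95% intervals from edgeR for the 9 hosts (dark) and 12 other non-coding snoRNA hosts (grey), 1 row per transcript. Gas5 lies at −1.70 (interval −2.38 to −1.02), and the points of the other transcripts lie between −0.18 and 0.57 with intervals that include 0.

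Protein-coding genes that carry snoRNAs in their introns were also set beside Gas5, which was selected on its group difference. On a list of 40, all of which were tested, 0 were called by edgeR, 0 had an unadjusted p under 0.05 and DESeq2 called 0. Their median log2 fold change was 0.32, from −0.28 for Ncl, which encodes nucleolin, to 0.76 for Rack1, a ribosome-bound scaffold. Knockout replicate 2 carried this median, which was −0.0025 without it and 0.55 without knockout replicate 1. The translation elongation factor gene Eef2 had 4559 and 3539 CPM in knockouts, against 3188 and 3622 CPM in controls. Tpt1, a translationally controlled TOP gene, had 2118 and 3452 CPM in knockouts, against 2242 and 2206 CPM in controls. Of the 77 ribosomal protein genes 0 were called by edgeR or DESeq2, 0 had an unadjusted p under 0.05, and the median log2 fold change was 0.42. Of the 77, 76 had a log2 fold change above 0 and 34 had both knockouts above both controls, where 12.2% of all genes tested did. Their median was 0.066 without knockout replicate 2 and 0.71 without knockout replicate 1. Of 20 TOP translation factors 0 were called by either tool and 0 had an unadjusted p under 0.05, with a median of 0.28, or 0.010 without knockout replicate 2 and 0.45 without knockout replicate 1. Eef1a1, which encodes an elongation factor, had 8035 and 14910 CPM in knockouts, against 8751 and 7305 CPM in controls. The lists overlap, with 19 genes both coding hosts and ribosomal proteins, which is 47.5% of the first list and 24.7% of the second.

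The spread between replicates set some hosts apart from others. Knockout replicate 2 exceeded knockout replicate 1 by 0.43 to 0.86 log2 units in Gas5, Snhg1, Snhg3, Snhg5, Snhg6, Snhg12 and Snhg15, and by 0.055 and 0.15 in Snhg8 and Snhg18. The same difference had a median of 0.66 over the 77 ribosomal protein genes and 0.63 over the 40 coding hosts, beside −0.022 over all genes with a count in every library. It was smaller, at 0.18, over the 12 other non-coding hosts, and 0.38 over the 20 TOP translation factors. Gas5, at 0.64, moved between the knockout libraries by about as much as the ribosomal protein genes. Between the controls, replicate 1 minus replicate 2 was −0.19 for Gas5, 0.90 for Snhg3 and 0.11 for the median ribosomal protein gene. The summed TPM of the ribosomal protein list was 109831 and 145948 in knockouts, against 106481 and 98616 in controls, and its part in the levels of the hosts was not tested.

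**Figure D4:**
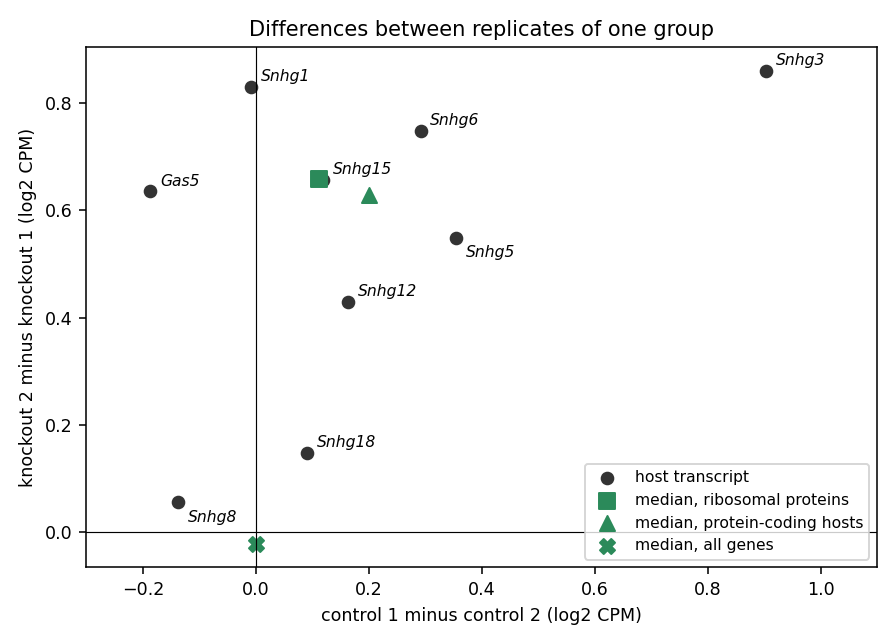
Differences between replicates of 1 group in log2 CPM, knockout 2 minus knockout 1 on the vertical axis and control 1 minus control 2 on the horizontal axis, for the 9 hosts (dark points) and for medians of gene lists (green). Gas5, at 0.64 between knockouts and −0.19 between controls, lies near the height of the ribosomal protein median (0.66), and Snhg8 and Snhg18 lie near the median of all genes.

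The snoRNAs themselves were almost unseen in these libraries. GENCODE M21 (GRCm38) places 31 snoRNA entries inside the 9 hosts on the same strand, 10 of them in Gas5, and 27 of the 31 have a row in the count table. Of these, 24 had 0 counts in all 4 libraries, among them all 9 counted entries of Gas5. Snord80 of Gas5 and Snora16a of Snhg12 have repeated entries, so entries outnumber distinct snoRNAs, and an entry of Gas5 is named Mir5117. A count of 0 allows up to 3 counts, which is 0.0907 and 0.107 CPM in knockouts and 0.0863 and 0.0855 CPM in controls, for counting error only. Exons of any isoform of Gas5 overlap all 10 of its snoRNA entries in that annotation and the deposited Gas5 length is 4001 bases, and the labels do not say how reads shared by overlapping genes were counted. Levels of mature snoRNAs from Gas5 were therefore not measured. The 3 entries with counts were Snora73a, Snora73b and Snord123. Snora73b and Snord123 are shown with Snord47 and Snord80 of Gas5, which had 0, to set counted and uncounted snoRNAs side by side. In these GENCODE M21 sequences, capitals mark the C box TGATGA near the 5′ end and the D box CTGA near the 3′ end of C/D snoRNAs, and the ACA box of the H/ACA snoRNA.
Snord47, in Gas5: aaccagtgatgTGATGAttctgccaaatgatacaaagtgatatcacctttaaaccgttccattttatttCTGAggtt
Snord80, in Gas5: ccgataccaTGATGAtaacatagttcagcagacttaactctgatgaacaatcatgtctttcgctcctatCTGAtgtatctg
Snord123, in Snhg18: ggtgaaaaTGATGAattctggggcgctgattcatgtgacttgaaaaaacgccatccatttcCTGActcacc
Snora73b, in Snhg3: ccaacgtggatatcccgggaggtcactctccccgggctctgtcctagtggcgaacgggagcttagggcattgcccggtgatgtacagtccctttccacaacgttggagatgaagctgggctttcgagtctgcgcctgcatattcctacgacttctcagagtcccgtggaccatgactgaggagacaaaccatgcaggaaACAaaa

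Snora73b had 81 and 174 raw counts in knockouts, against 149 and 90 in controls. Snora73a had 12 and 37 in knockouts, against 20 and 9 in controls. Both snoRNAs, and Snhg3 around them, were highest in knockout replicate 2 or control replicate 1 and low in the remaining libraries. Snora73a and Snora73b are 205 bases long and differ at 7 positions, an identity of 96.6%, so reads may have been split between them. Snord123 had 25 and 14 counts in knockouts, against 21 and 19 in controls, and the groups overlapped.

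Genes that share DNA with the hosts bear on what a count means, because neither a strand setting nor a rule for shared reads is given. Zbtb37, a zinc finger gene on the opposite strand that overlaps the start of Gas5, had 32.8 and 30.7 CPM in knockouts, against 31.2 and 34.0 CPM in controls, and its log2 fold change was −0.036 (SE 0.22). The groups overlapped for Zbtb37 and not for Gas5, and the part of shared reads in either count was not tested. Rcc1, which encodes a chromatin-bound exchange factor for the GTPase Ran, overlaps Snhg3 on the same strand and had 33.3 and 45.4 CPM in knockouts, against 47.3 and 32.8 CPM in controls. Gm17300, a long non-coding transcript on the opposite strand inside Snhg3, had 20.3 and 41.7 CPM in knockouts, against 35.3 and 19.6 CPM in controls. Snhg3, Rcc1, Gm17300 and Snora73b thus had the same high libraries, knockout replicate 2 and control replicate 1, and how reads were assigned among them is not known. A strand setting would separate only Gm17300, since the other 3 lie on the same strand. Summed blood and skeletal muscle markers were high in the same libraries, and their part in the level of Snhg3 was not tested. Mcmdc2, a meiotic gene that overlaps the end of Snhg6 on the other strand, had 5.23 and 3.56 CPM in knockouts, against 5.47 and 5.36 CPM in controls.

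Around each host, the 10 nearest tested genes on either side were set beside it in gene order (GENCODE M21). Of the 20 neighbours of Gas5, 0 were called by edgeR, and their median log2 fold change was −0.10. A log2 fold change of 1 or more in size was found in 3 of the 20, where 5.26% of all genes had one. They were Gm37634, next to Gas5 downstream on the same strand (−1.88, SE 0.71), and, at the far end, the pseudogene Gm7496 (1.49, SE 0.48) and Suco (1.22, SE 0.40), which encodes an endoplasmic reticulum protein. Gm37634 had 0.181 and 0.107 CPM in knockouts, against 0.604 and 0.484 CPM in controls, so its level is that of few reads. Suco had 141 and 327 CPM in knockouts, against 96.7 and 104 CPM in controls. The neighbours of the other hosts held 0 to 3 such genes of 20 each, the 3 being at Snhg6, and 0 were called at any host. Snhg3 and Snhg12 are neighbours of each other on chromosome 4.

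**Figure D5:**
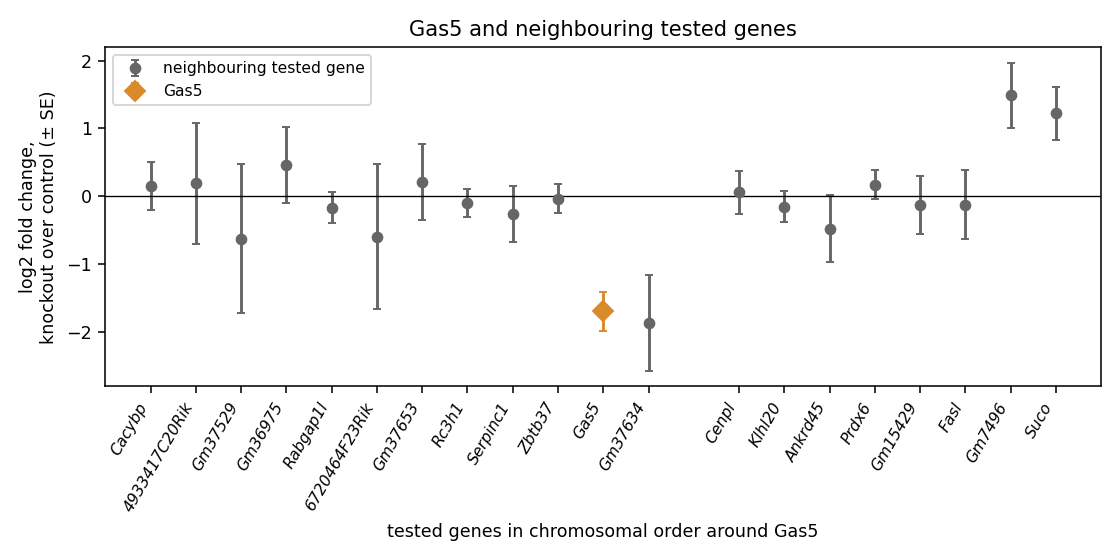
Log2 fold change, knockout over control, with standard errors for Gas5 (orange) and the tested genes nearest to it on either side (grey), in chromosomal order on chromosome 1 at equal spacing, with 1 of the 20 neighbours not plotted. Gas5 at −1.70 stands between Zbtb37 at −0.036 and Gm37634 at −1.88.

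Genes that make or break down the hosts' products were examined by fixed lists. Of 18 snoRNP proteins and assembly factors, such as the core proteins Nhp2 (65.7 and 115 CPM in knockouts, against 114 and 61.4 CPM in controls) and Nop10 (43.8 and 65.1 CPM in knockouts, against 60.01 and 43.5 CPM in controls), 0 were called by edgeR or DESeq2 and 0 had an unadjusted p under 0.05, with a median log2 fold change of 0.060. That median was −0.21 without knockout replicate 2 and −0.15 without control replicate 2. It was 0.32 without knockout replicate 1 and 0.39 without control replicate 1, so its sign depended on which library was left out. Of 16 factors of nonsense-mediated decay, 0 were called by either tool and 0 had an unadjusted p under 0.05. Their median was −0.067, and 0.018 without control replicate 1. The exon junction genes Magoh and Eif4a3 had log2 fold changes of 0.11 (SE 0.26) and 0.14 (SE 0.30). Of 14 mTOR pathway genes, 0 were called by either tool and 0 had an unadjusted p under 0.05, with a median of 0.049, but −0.16 without knockout replicate 1 and −0.071 without control replicate 2. Larp1, which binds TOP transcripts, was at 246 and 200 CPM in knockouts, against 241 and 248 CPM in controls. Eif4ebp2, a repressor of cap-dependent translation, had a log2 fold change of −0.052 (SE 0.24).

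Lists linked to the background of Gas5 itself gave no calls. Of 5 steroid receptor genes, 0 were called by edgeR or DESeq2 and 0 had an unadjusted p under 0.05. The oestrogen receptor gene Esr1 had 276 and 244 CPM in knockouts, against 279 and 274 CPM in controls. Pgr, the floxed gene, had 130 and 146 CPM in knockouts, against 140 and 139 CPM in controls, a whole-organ value that does not check deletion in glands. Of 13 glucocorticoid receptor targets, 0 were called by either tool and 0 had an unadjusted p under 0.05. Their median was 0.15, but it was −0.16 without knockout replicate 1 and between 0.032 and 0.13 without any other library. The metallothionein genes Mt1 and Mt2 had log2 fold changes of −0.28 (SE 0.30) and −0.27 (SE 0.31). Of 14 growth arrest genes, 0 were called by either tool and 0 had an unadjusted p under 0.05, with a median of −0.0028, which ran from −0.20 without knockout replicate 2 to 0.11 without knockout replicate 1. Gas6, a ligand of TAM receptors, had 283 and 290.1 CPM in knockouts, against 285 and 303 CPM in controls. All 16 proliferation genes had a log2 fold change below 0 (median −0.84) and both knockouts below both controls, where 13.1% of all genes tested did so. Of them 0 were called by edgeR or DESeq2, and 9 had an unadjusted p under 0.05, where 3.01% of all genes tested did. Pcna, the replication clamp gene, had 58.2 and 89.5 CPM in knockouts, against 168 and 91.4 CPM in controls, and the replication helicase gene Mcm7 had 77.0 and 76.6 CPM in knockouts, against 109 and 77.02 CPM in controls. The summed TPM of the list was 417 and 352 in knockouts, against 847 and 542 in controls, and the part of proliferation in the level of Gas5 was not tested.

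The genes whose 4 values most resembled those of Gas5 were sought by Euclidean distance between centred log2 CPM profiles over the 4 libraries, among 13318 other genes averaging 5 CPM or more. The nearest were Kbtbd8, a ubiquitin ligase adaptor gene (distance 0.22), Wfdc3, a whey acidic protein family gene (0.31), Gsto1, a glutathione transferase gene (0.32), Oas3, an interferon-induced oligoadenylate synthetase gene (0.40), and Mfap1b (0.49). Gsto1, the most abundant of them, had 223 and 268 CPM in knockouts, against 762 and 751 CPM in controls. Kbtbd8 had 5.26 and 8.41 CPM in knockouts, against 19.9 and 19.7 CPM in controls. The 8 other hosts lay 1.69 (Snhg8) to 2.10 (Snhg1) from Gas5, and Snhg8, the nearest of them, had rank 2527. Of the 1075 genes at least as abundant as Gas5 by mean CPM, 3 had a log2 fold change as low as its own, which are Gas5 itself, Igha, the immunoglobulin alpha constant gene (−2.81, SE 0.25), and Gm43305 (−3.36, SE 1.21, with 212 and 25.1 CPM in knockouts, against 277 and 2160 CPM in controls), and 11 had one of 1 or more in size. With 4 libraries in 2 groups, such likeness mostly restates the group difference. Gas5 was selected on that difference, so nothing is read from its place among the 1075 genes.

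Total counts were 31901278 and 29932153 in knockouts and 35149834 and 33843256 in controls. Uterine markers were present in every library, with a median log2 fold change of 0.043 over 10 genes, 0 calls by edgeR or DESeq2 and 0 genes with an unadjusted p under 0.05. That median was −0.050 without control replicate 2. The log2 fold changes ran from −0.62 for Foxa2 to 0.61 for Acta2, a smooth muscle gene, with 5 genes above and 5 below 0. Foxa2, which encodes a transcription factor of gland epithelium, had 13.51 and 5.49 CPM in knockouts, against 13.53 and 15.7 CPM in controls (SE 0.44), and its part in the levels of the hosts was not tested. Muscle content varied within groups, with Acta2 at 1396 and 2406 CPM in knockouts, against 1991 and 500.4 CPM in controls. The summed TPM of skeletal muscle markers was 119 and 234 in knockouts, against 202 and 36.5 in controls, that of blood markers 141 and 430.4 in knockouts, against 401 and 118 in controls, and that of oviduct and ovary markers 55.8 and 38.0 in knockouts, against 51.4 and 64.2 in controls. Adipocyte markers summed to 0 and 18.8 TPM in knockouts, against 0.0396 and 3.29 TPM in controls, with Adipoq and Cidec at 0 in knockout replicate 1 and control replicate 1. On each of these 4 lists 3 genes were tested, of which 0 were called by edgeR or DESeq2. Ckm and Ovgp1 had an unadjusted p under 0.05, where 3.01% of all genes tested did. The skeletal muscle gene Ckm had a log2 fold change of 2.34, beside a list median of 0.66. Most of the summed TPM of that list was Acta1, at 113 and 225 TPM in knockouts, against 198 and 30.3 TPM in controls. The level of Ckm was therefore low. Ovgp1, on the oviduct and ovary list, had 16.5 and 22.7 CPM in knockouts, against 29.3 and 36.2 CPM in controls. Its log2 fold change was −0.74 (SE 0.27), beside a list median of 0.11. The summed levels of all 4 lists overlapped between groups, and their part in the levels of the hosts was not tested.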

How the data were processed

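RNA from whole uteri was sequenced as 150-base paired ends after NEBNext Ultra II library preparation, per the labels' protocols. Reads were demultiplexed with bcl2fastq 2.17, per the series' design text, and Trimmomatic, STAR, featureCounts and GRCm39 are named in the submitters' processing notes, without settings. The authors deposited raw counts for 57186 genes. The authors also deposited TPM for 19991 genes, each with a total of at least 51 counts, while genes left out had 50 or fewer.

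Counts were tested with edgeR 4.0.16 in R 4.3.3 (filterByExpr, TMM, quasi-likelihood test, Benjamini-Hochberg over 20950 genes, threshold 0.05). The procedure was also tested on data simulated from the means and dispersions of these libraries, and nothing is read from that test here. Total counts were 29932153 to 35149834 per library, and floors of 3 counts cover counting error only. Alternatives were DESeq2 1.42.0, limma 3.58.1 on log2 TPM, other scaling and filters, a replicate block, and each library left out. Same-numbered libraries deviated in opposite directions (correlation −0.44 over 20950 genes), so replicate numbers were not taken as pairs. No pair of libraries agreed within sampling noise. The chi-square per degree of freedom was 81.9 between the knockouts and 86.2 between the controls. Across groups it ran from 40.9 (knockout replicate 1 with control replicate 2) to 119 (knockout replicate 2 with control replicate 2).

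The members, lists and tests were chosen with earlier results of these data known. Named genes are the members, their nearest neighbours, their snoRNAs, the 2 most abundant genes of each list and the 5 genes most like Gas5. Genes at the ends of a list's range, neighbours past a log2 fold change of 1, and Igha, Gm43305, Larp1, Pgr, Gas6, Acta2, Adipoq, Cidec, Foxa2, Ckm and Ovgp1 were named after their values were seen, except where the rule also names them. Annotation came from GENCODE M21 and RefSeq (GRCm38), used for names, gene order and sequences. A neighbour of Gas5 is counted in the summary but not reported here.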

Additional observations from a re-analysis of the deposited data

How the results depend on the processing

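The count of genes called higher in knockouts was 1, and 35 with no low-count filter, 44 with DESeq2, 3 with limma on log2(TPM + 1), 6 with limma on log2(TPM + 0.1), 22 with the replicate block and 10 to 39 with 1 library left out. The count called lower was 0 (630 genes had an unadjusted p under 0.05 in either direction), and 19 with no filter, 46 with DESeq2, 10 with the replicate block and 4 to 22 with 1 library left out. With the replicate numbers crossed, which was chosen after seeing the data, 22 genes were called higher and 15 lower. The number of members called was 0, and 1 with no filter and with DESeq2. The log2 fold change of Gas5 ran from −2.05 (without knockout replicate 2) to −1.42 (without knockout replicate 1), and from −1.79 to −1.69 under the other alternatives, with −1.73 under the replicate block. The median of the other 8 hosts ran from −0.068 (without knockout replicate 2) to 0.52 (without knockout replicate 1), and from 0.18 to 0.28 otherwise. In fits that leave 1 library in a group, that library is assumed to vary like the other group, and the cause of these shifts was not tested. With 2 libraries a group, the 95% interval of Snhg3 ran from −0.90 to 1.15, so differences between these sizes were not excluded here.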
